A study of Mus musculus with 4 samples.

Results

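The genes described here build cholesterol, sense it, move it inside the cell and pump it out, and they were followed in mouse livers after combined loss of MET and EGFR signalling. They were taken by gene symbol as a list of 27, of which 25 had a probe set named for them alone, out of 18193 genes so named. The other 2, Acat2 and Soat2, had none in the annotation used and are not analysed here. Every one of the 25 was above the filter on dim genes that left 11993 genes for testing. Of the 25, 17 are enzymes of synthesis, and the other 8 are a branch enzyme, sterol sensors, a transfer protein and exporters. No member is a lipoprotein receptor, so that uptake from blood is not covered by the list itself.

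Pooled liver RNA was measured on 4 Affymetrix arrays, 1 for each of 2 groups at each of day 7 and day 10. All mice, controls included, carried the genotype written Metff/ff:ERCre+/+, in which tamoxifen lets Cre cut exon 16 out of Met, a gene whose product binds hepatocyte growth factor. A protocol note spells it METfl/fl: TamCre+/+. The delta MET + EGFRi group received tamoxifen on 5 days, rested for 4 days and then ate canertinib, an EGFR inhibitor, aimed at 80 mg/kg/day, until day 7 or day 10 of that diet. The control group were littermates given corn oil alone, harvested 7 or 10 days after the same 4 days of rest. Tamoxifen, Met deletion, canertinib and any change in feeding therefore go together and cannot be told apart. The sources used here do not state which promoter drives Cre, the sex or age of the mice, or how many livers went into each pool. The labels call the inhibition systemic, so that it was not limited to hepatocytes.

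Cholesterol is made from acetyl-CoA through mevalonate, farnesyl diphosphate, squalene and lanosterol, after which the sterol rings are trimmed and reduced in a series of steps. The liver is a main site of this synthesis and also secretes cholesterol into bile. The pathway is best known for its feedback. When the endoplasmic reticulum is short of sterol, the escort protein Scap carries the transcription factor SREBP2, product of Srebf2, to the Golgi, where it is cut and freed to switch on the synthesis genes. When sterol is plentiful, the Insig proteins hold Scap back, and Insig1 is itself a gene that SREBPs switch on.

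Promoters of 22 of the 27 genes were found in RefSeq (build GRCm38.p6), and 6 are shown because their genes span the outcomes below. Each is the 250 bases before the start site, read on the gene's own strand, with CCAAT boxes in capitals on either strand, so that a box on the opposite strand reads ATTGG. These letters are bound by NF-Y, a partner of SREBPs at many sterol genes. In Hmgcs1 the capitals also mark the letters TCACCCCAC, a match to the sterol element core TCACNCCAC. The windows are chr13:119690101-119690350 (plus strand), chr5:114444019-114444268 (plus), chr13:8885356-8885605 (plus), chr5:4104698-4104947 (minus), chr5:28071162-28071411 (plus) and chr9:42264301-42264550 (minus).
Hmgcs1: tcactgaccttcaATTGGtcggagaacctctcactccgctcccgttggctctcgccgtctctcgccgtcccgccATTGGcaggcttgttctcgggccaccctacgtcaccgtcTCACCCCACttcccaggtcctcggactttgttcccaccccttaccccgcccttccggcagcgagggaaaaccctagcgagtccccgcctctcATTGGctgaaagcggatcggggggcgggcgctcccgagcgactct
Mvk: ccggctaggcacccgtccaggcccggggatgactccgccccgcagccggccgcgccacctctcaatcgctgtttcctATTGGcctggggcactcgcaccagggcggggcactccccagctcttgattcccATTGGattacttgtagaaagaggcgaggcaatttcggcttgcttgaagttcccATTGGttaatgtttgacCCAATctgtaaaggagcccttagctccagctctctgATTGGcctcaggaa
Idi1: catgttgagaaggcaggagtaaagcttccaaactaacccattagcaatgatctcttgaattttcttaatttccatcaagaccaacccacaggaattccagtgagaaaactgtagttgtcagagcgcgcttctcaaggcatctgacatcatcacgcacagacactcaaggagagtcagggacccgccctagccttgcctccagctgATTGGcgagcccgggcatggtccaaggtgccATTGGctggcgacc
Cyp51: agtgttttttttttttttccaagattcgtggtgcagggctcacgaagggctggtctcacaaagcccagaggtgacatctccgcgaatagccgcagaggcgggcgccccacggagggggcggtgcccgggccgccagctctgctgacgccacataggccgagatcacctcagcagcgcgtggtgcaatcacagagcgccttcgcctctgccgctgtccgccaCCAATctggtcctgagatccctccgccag
Insig1: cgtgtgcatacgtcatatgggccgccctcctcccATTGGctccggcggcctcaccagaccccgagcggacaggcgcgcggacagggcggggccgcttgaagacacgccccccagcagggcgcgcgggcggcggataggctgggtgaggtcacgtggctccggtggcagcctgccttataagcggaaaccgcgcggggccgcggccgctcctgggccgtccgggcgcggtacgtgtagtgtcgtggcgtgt
Sc5d: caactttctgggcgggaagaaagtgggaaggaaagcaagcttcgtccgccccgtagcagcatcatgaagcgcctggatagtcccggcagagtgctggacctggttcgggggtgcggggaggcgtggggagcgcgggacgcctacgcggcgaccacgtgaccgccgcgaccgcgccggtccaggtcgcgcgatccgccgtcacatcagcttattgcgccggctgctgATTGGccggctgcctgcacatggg
A CCAAT box was found in 14 of the 14 synthesis enzymes with a window, and in 19 of the 22 members, against 39.5% of the 9690 tested genes with a window. Genes with several start sites had several windows, and any match counted. Mvk held 5 boxes, Hmgcs1 held 3, Idi1 held 2, and Cyp51, Insig1 and Sc5d held 1 each. The sterol core matched letter for letter only in Hmgcs1 among the 22, against 1.39% of tested genes. Near matches were not searched, so that the other promoters are not shown to lack a sterol element. The Sp1 letters GGGCGG matched in 18 of the 22, against 59.5% of tested genes. A box was present both in genes that were higher in treated livers and in Insig1 and Sc5d, which were not.

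The first comparison set treated against control livers over the mevalonate arm, the steps that make farnesyl diphosphate. Every one of its 6 enzymes had a higher signal in treated livers at both days, against 26.7% of tested genes. In 5 of the 6 both treated arrays stood above both control arrays, against 20.3% of tested genes. Signals are linear MAS5 intensities, scaled by the authors to a common level on every array. They are compared within a gene only, since probes differ in brightness. The samples were whole liver, in which fewer cells of a type and less RNA per cell cannot be told apart.

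Hmgcs1, which joins acetyl units into HMG-CoA, had signals of 44650 and 29363 at day 7 and day 10 in treated livers, against 19991 and 11210 in control livers. Mvk, which phosphorylates mevalonate, had 2168.5 and 1902 in treated livers, against 568.3 and 124.1 in control livers. In both genes each treated array was above each control array, and the day 10 control array was the lowest of the 4. The day 10 control signal of Mvk lies under the filter level of 204, so that its 15.3-fold difference at day 10 rests on a dim value, beside 3.82-fold at day 7. Idi1, the isomerase that readies the isoprene unit for joining, had 23865 and 15567 in treated livers, against 8290.5 and 4748.7 in control livers. It was 2.88-fold higher at day 7 and 3.28-fold higher at day 10. The groups did not overlap.

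Pmvk and Mvd, the kinase and decarboxylase that follow Mvk, showed smaller differences. Pmvk had 2039.6 and 1120.1 in treated livers, against 1037.5 and 628.2 in control livers. Mvd had 1910.6 and 1790.6 in treated livers, against 1403.1 and 745.8 in control livers. In both the lowest treated array stood above the highest control array. Fdps, which makes farnesyl diphosphate, had 6298.1 and 3043.6 in treated livers, against 4447.6 and 1206.4 in control livers. Its groups overlapped, because the day 10 treated array was lower than the day 7 control array, although treated was higher at each day.

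**Figure D1:**
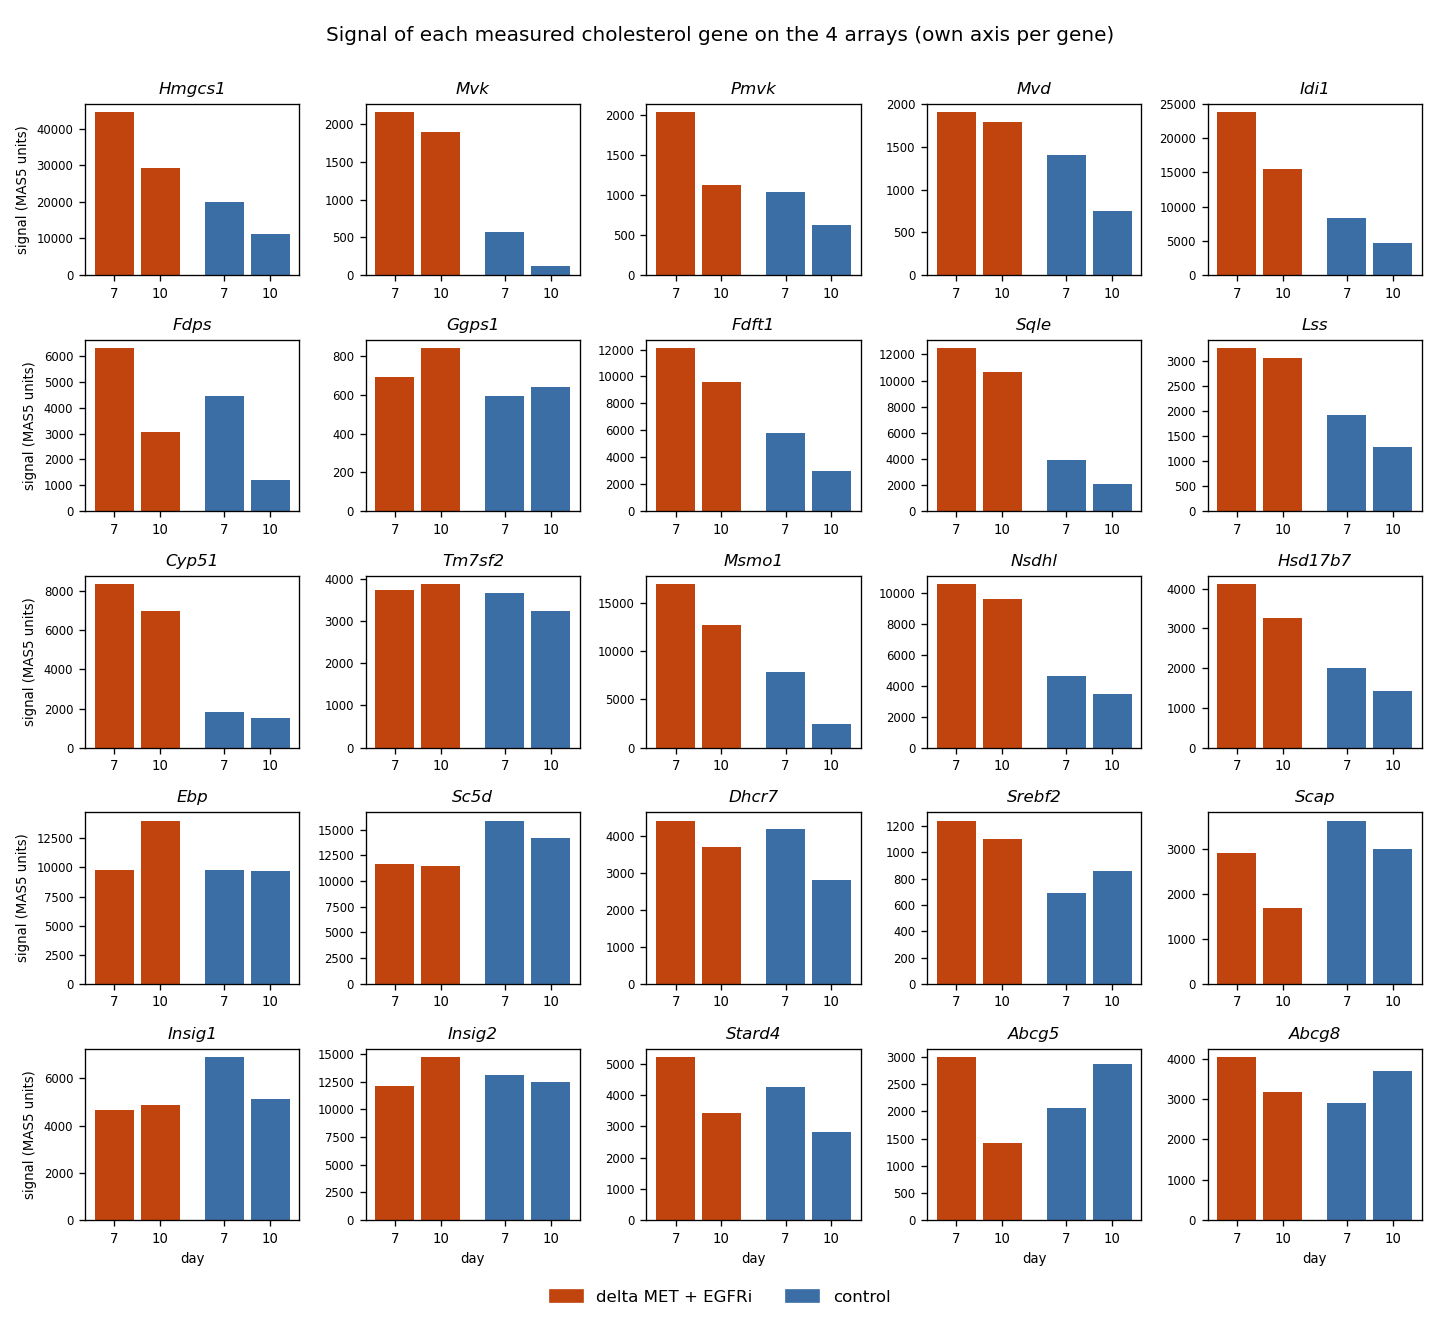
Bars give the MAS5 signal (y axis, from 0, own scale per gene) of each of the 25 measured genes on the 4 arrays, delta MET + EGFRi livers at day 7 and day 10 on the left and control livers on the right, 1 pooled array per bar. Early enzymes such as Hmgcs1, Idi1 and Sqle stand higher in both treated bars, while those of Insig2 and Tm7sf2 differ little between groups.

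At the limma test over both days (2 against 2 arrays, Benjamini-Hochberg adjusted over all 11993 genes) none of these 6 passed. The log2 difference, treated minus control, was 2.93 ± 0.65 (SE) for Mvk (adjusted p = 0.158), 1.62 ± 0.35 for Idi1 (adjusted p = 0.146) and 1.27 ± 0.35 for Hmgcs1 (adjusted p = 0.238). The other 3 lay between 0.85 and 0.92, with adjusted p from 0.377 to 0.616. At an unadjusted p under 0.05, 5 of the 6 were higher, all but Fdps, against 5.93% of tested genes. Within each day there is 1 array per group and no test.

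The next enzymes join farnesyl units into squalene and fold it into lanosterol. Fdft1, squalene synthase, had signals of 12110 and 9576.4 in treated livers, against 5803.4 and 2968.7 in control livers. Sqle, squalene epoxidase and a control point of the pathway, had 12489 and 10676 in treated livers, against 3939.9 and 2096.9 in control livers. Lss, lanosterol synthase, had 3252.3 and 3062.8 in treated livers, against 1916.9 and 1270.6 in control livers. In these 3 genes each treated array was higher than each control array, against 20.3% of tested genes.

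Sqle was 3.17-fold higher at day 7 and 5.09-fold higher at day 10, the widest difference after Mvk and Cyp51 by the limma estimate (2.01 ± 0.33 on the log2 scale, SE). It missed the threshold (adjusted p = 0.0687), but passed with arrays scaled to equal medians (adjusted p = 0.0498). Fdft1 differed by 1.38 ± 0.35 (adjusted p = 0.207) and Lss by 1.02 ± 0.26 (adjusted p = 0.209). At an unadjusted p under 0.05 all 3 were higher, against 5.93% of tested genes.

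The 8 enzymes after lanosterol differed among themselves. The first of them, the lanosterol demethylase Cyp51, and the enzymes that remove the remaining methyl groups (Msmo1, Nsdhl and Hsd17b7) were at least 2-fold higher at both days. The reductases Tm7sf2 and Dhcr7, the isomerase Ebp and the desaturase Sc5d stayed under 1.5-fold in either direction at both days by their brightest probe sets. A second probe set of Sc5d, whose signals are given with the other probe sets, had a log2 difference of -1.54. The difference between these subsets was noticed in the values and not tested.

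Cyp51 had signals of 8365.1 and 6981 in treated livers, against 1822.2 and 1508.7 in control livers, and rose 4.61-fold over both days (log2 difference 2.20 ± 0.22, SE; adjusted p = 0.0144). It was 4.59-fold higher at day 7 and 4.63-fold higher at day 10, the most even difference of any member that stood 2-fold apart. Without the day 7 control array its log2 difference was 2.34 (adjusted p = 0.0994), and without the day 10 control array 2.07 (adjusted p = 0.203). It also did not pass without a filter on dim genes (adjusted p = 0.153) or with the mean of its 3 probe sets (1.41, adjusted p = 0.0684).

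Msmo1, the methyl sterol oxidase, had 16928 and 12663 in treated livers, against 7841.7 and 2456.6 in control livers. Nsdhl, the dehydrogenase that follows it, had 10596 and 9620.9 in treated livers, against 4626.7 and 3501.6 in control livers. Hsd17b7, the keto reductase of the same cycle, had 4109.3 and 3263.9 in treated livers, against 2001.7 and 1416.2 in control livers. In all 3 both treated arrays stood above both control arrays, against 20.3% of tested genes, and the day 10 control array was again the lowest. Their log2 differences were 1.74 ± 0.52 (SE) for Msmo1, 1.33 ± 0.23 for Nsdhl and 1.12 ± 0.26 for Hsd17b7 (adjusted p = 0.273, 0.0818 and 0.168).

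Tm7sf2, a sterol reductase, had 3740.4 and 3865 in treated livers, against 3655.4 and 3232.6 in control livers. Ebp, the sterol isomerase, had 9789.7 and 14026 in treated livers, against 9772.9 and 9707.1 in control livers, so that the groups were level at day 7 and apart at day 10. Dhcr7, the reductase at the end of the pathway, had 4429.4 and 3714.9 in treated livers, against 4213.6 and 2810.5 in control livers, with overlap. Sc5d, the desaturase before it, was the 1 enzyme with both treated arrays below both control arrays, at 11625 and 11421 in treated livers against 15888 and 14188.5 in control livers. None of the 4 passed, with adjusted p from 0.517 for Sc5d to 0.814 for Tm7sf2. The 95% interval of the log2 difference was -0.34 to 0.63 for Tm7sf2, -0.32 to 0.86 for Ebp, -0.40 to 0.87 for Dhcr7 and -0.87 to 0.11 for Sc5d. These intervals leave out a 2-fold rise for each of the 4.

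Over the 17 synthesis enzymes 1 rose and 0 fell, and over all 25 members likewise 1 rose (Cyp51) and 0 fell. Of all 11993 tested genes 0.375% rose and 0.283% fell. At an unadjusted p under 0.05, 12 of the 17 enzymes were higher and 0 lower, against 5.93% higher and 6.15% lower among all tested genes. The 12 were all but Fdps, Tm7sf2, Ebp, Sc5d and Dhcr7. Both treated arrays stood above both control arrays in 14 of the 17, against 20.3% of tested genes, and both stood below in 1 of the 17, Sc5d, against 24.1%. The median log2 difference of the 17 was 1.12, beside -0.02 over all tested genes.

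Alb, the albumin gene and a hepatocyte marker, had signals of 78532 and 74100.5 in treated and 75758 and 71295 in control livers. The 9 hepatocyte markers measured had a median log2 difference of 0.05, with 4 higher and 1 lower at both days, and spread from -0.72 to 0.80 at day 10. Macrophage markers moved with the synthesis genes, and all 12 were higher at both days, against 26.7% of tested genes. Of the 12, 3 rose, and the list's median stood at 0.96 (log2, day 7) and 1.88 (day 10). Their summed signal, to which bright probe sets contribute most, was 48906.5 and 49701 in treated livers, against 21440 and 12111 in control livers, where it was also lower at day 10 than at day 7. Neutrophil markers summed to 8733.1 and 8558.3 in treated livers, against 3050.4 and 3390.9 in control livers, with Camp at or under the floor on all arrays. Of the 6 neutrophil markers tested 2 rose, with a list median of 1.21 (log2, day 7) and 0.34 (day 10), the value of day 10 lying under the difference of the sums. Their part in the cholesterol results was not tested. Among tested genes of the endothelial, stellate, cholangiocyte, and T and NK cell lists 0 rose, and 1 of the B and plasma cell list did. The stellate cell list had a median log2 difference of -0.19 over 5 tested genes. Its summed signal was higher in treated livers, at 15373 and 14653, against 9264.1 and 10525.5 in control livers.

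By size, 9 of the 17 enzymes were 2-fold or more higher at day 7 and 12 at day 10, against 4.6% and 5.84% of tested genes. The 9 at day 7 were 2-fold higher at both days, where the share of tested genes was 1.54%. These counts use the brightest probe sets, and other probe sets of some of the 9 lay under 2-fold at day 7. The lowest of the 9 stood at 2.05-fold at day 7 (Hsd17b7), and with quantile normalization 5 members passed 2-fold at day 7. The 3 added at day 10 were Mvd, Fdps and Lss. By brightest probe sets none of the 17 was 2-fold lower at either day (5.16% of tested genes at day 7, 4.91% at day 10 and 1.14% at both). The second probe set of Sc5d was past 2-fold lower at both days (log2 differences -1.59 and -1.48).

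**Figure D2:**
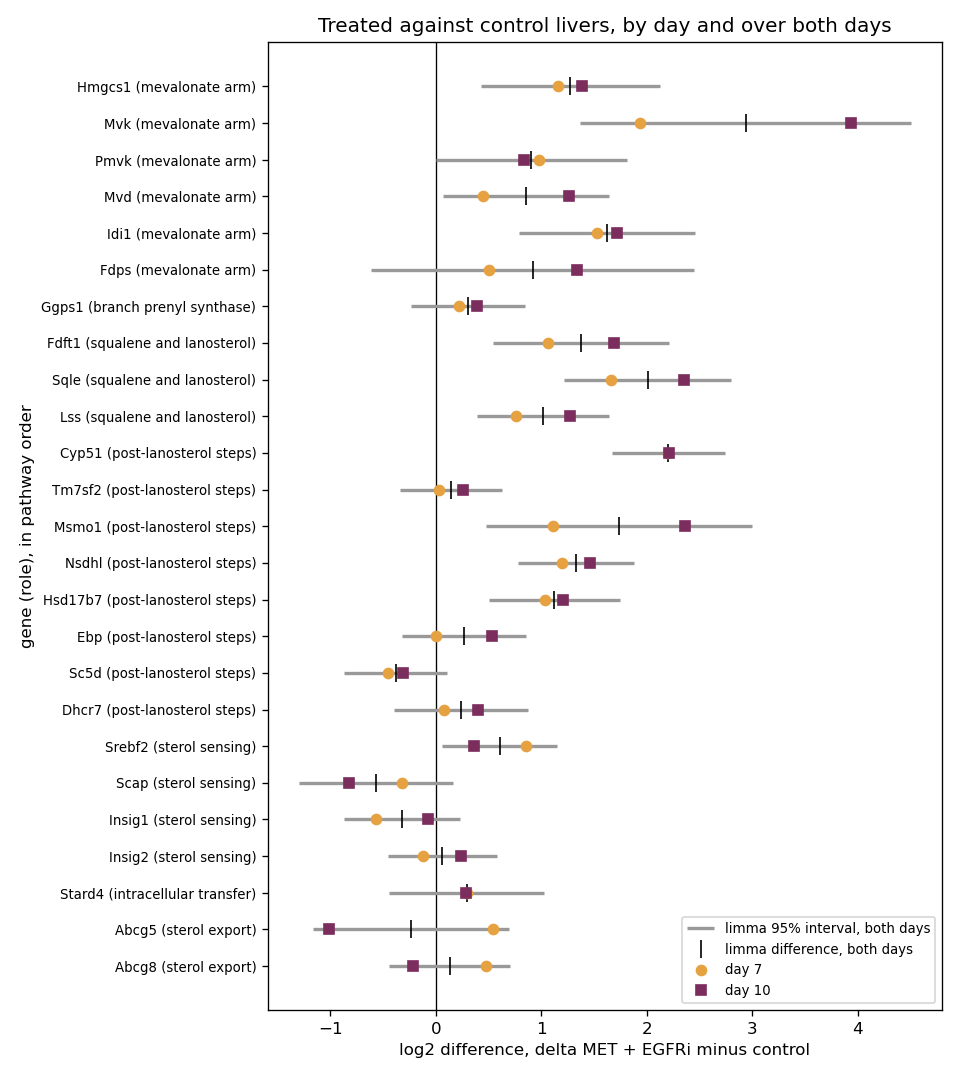
Each row is 1 measured gene in pathway order, with its log2 difference (x axis, delta MET + EGFRi minus control) at day 7 (circle) and day 10 (square), and limma's estimate over both days (tick) with its 95% interval (bar). Points for the steps up to Hsd17b7 lie right of 0.4, except those of Ggps1 and Tm7sf2, while later steps, sensors and exporters scatter around 0.

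Of the 4 sensing genes, Srebf2 was higher in treated livers at both days, Scap and Insig1 were lower, and Insig2 overlapped. Srebf2 had signals of 1241.9 and 1099.8 in treated livers, against 688 and 858.9 in control livers. Its groups did not overlap and it was 1.81-fold higher at day 7 and 1.28-fold higher at day 10. The log2 difference over both days was 0.60 ± 0.23 (SE, limma adjusted p = 0.37). By day the order depended on the probe set. The brightest had log2 differences of 0.85 at day 7 and 0.36 at day 10, and the second had 0.63 and 1.30. Scap had 2911.8 and 1698.7 in treated livers, against 3641.4 and 2999.6 in control livers, with both treated arrays below both control arrays (-0.57 ± 0.30, adjusted p = 0.517).

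Insig1 had 4676.8 and 4871.9 in treated livers, against 6915.6 and 5136.3 in control livers, so that both treated arrays were lower. Its log2 difference was -0.32 ± 0.23 (adjusted p = 0.627) with a 95% interval of -0.87 to 0.23, which leaves out a 2-fold rise. Insig2, the second retention protein, had 12098 and 14753 in treated livers, against 13134 and 12473 in control livers. These overlapped, at 0.06 ± 0.21 (adjusted p = 0.934; interval -0.45 to 0.58). Among the 4 sensing genes 0 passed in either direction, and the median log2 difference was -0.13. The difference between sensing genes and enzymes was not tested.

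Ggps1 and Stard4, the branch enzyme and the transfer protein, differed little. Ggps1, which diverts farnesyl diphosphate to geranylgeranyl diphosphate for protein prenylation, had 692 and 840 in treated livers, against 594 and 640.2 in control livers. The groups did not overlap, but the log2 difference was 0.31 ± 0.22 (adjusted p = 0.635), and 2 of its 3 other probe sets had the opposite sign. Stard4, a soluble carrier of cholesterol between membranes and, like the enzymes, a known SREBP2 target, had 5226.7 and 3439.8 in treated livers, against 4251.7 and 2827.3 in control livers. Those values overlapped (0.29 ± 0.31, adjusted p = 0.751).

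Abcg5 and Abcg8 are the paired subunits of the pump that moves sterol into bile. The genes lie head to head on chromosome 17, and the 109 bases between their start sites (chr17:84683012-84683120, plus strand letters, GRCm38.p6) are shown because this stretch is shared by both. These 109 bases held 0 CCAAT boxes. The longer 250-base window before this start site of Abcg8 held 2, at -175 and -114 from the start site, and that of Abcg5 held 0.
Abcg5 and Abcg8: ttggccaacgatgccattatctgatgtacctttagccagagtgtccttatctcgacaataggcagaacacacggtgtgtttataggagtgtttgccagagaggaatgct
Abcg5 had signals of 3002.9 and 1418.9 in treated livers, against 2063.4 and 2870.6 in control livers. Abcg8 had 4047.7 and 3177.9 in treated livers, against 2909.1 and 3693.3 in control livers. In both the day 7 treated array was the highest of the 4, and treated was lower than control at day 10. Abcg5 was 1.46-fold higher at day 7 and 2.02-fold lower at day 10, and Abcg8 1.39-fold higher and 1.16-fold lower. Abcg5 was the 1 member past 2-fold lower at day 10, against 4.91% of tested genes, and after quantile normalization 0 members were. Over both days neither passed (adjusted p = 0.842 for Abcg5 and 0.863 for Abcg8), and with 1 array per group and day the change between days was not tested.

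The second question was how the genes moved between day 7 and day 10 within each group, where each day is 1 pooled array and no test is possible. In control livers all 17 enzymes were lower at day 10 than at day 7, against 52.4% of tested genes. In treated livers 15 of the 17 were lower, against 47.4% of tested genes. The exceptions were Ebp and Tm7sf2, and 23.7% of tested genes were lower in both groups. The median log2 change, day 10 minus day 7, was -0.25 in treated livers and -0.72 in control livers.

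The widest changes in control livers were those of Mvk (-2.20 on the log2 scale), Fdps (-1.88) and Msmo1 (-1.67). These 3 were the members 2-fold or more lower at day 10 in control livers, against 3.09% of tested genes. In treated livers Fdps and Abcg5 were, against 3.78%. Mvk, Fdps and Msmo1 changed by -0.19, -1.05 and -0.42 on the log2 scale in treated livers. Cyp51 changed alike in both, by -0.26 in treated and -0.27 in control livers. Put as a group difference, treated minus control, the signed value was higher at day 10 than at day 7 in 16 of the 17 enzymes. The share of tested genes was 53.1%, and Pmvk was the exception. The 16 include Sc5d, which went from -0.45 to -0.31. This count restates the changes within the groups and is not a separate result. For the 8 other members the medians were -0.26 in treated and 0.02 in control livers, and Abcg5 showed opposite changes, -1.08 in treated and 0.48 in control livers.

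**Figure D3:**
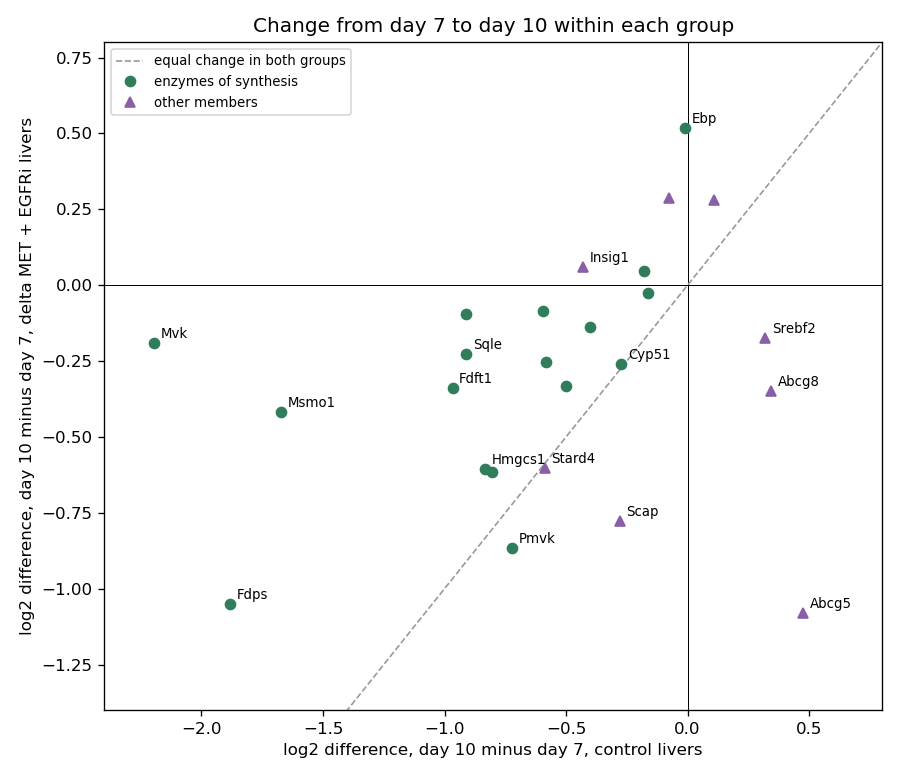
Each point is 1 measured gene, with its log2 change (day 10 minus day 7) in control livers on the x axis and in delta MET + EGFRi livers on the y axis, 1 array per group and day; the dashed line marks equal change. All enzymes of synthesis lie left of 0 on the x axis, and all but Pmvk lie above the line.

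The size of the group difference depended on which array was left out. Over all 25 members the median log2 difference was 0.85. Leaving out the treated array of day 7 gave 0.52, and that of day 10 gave 0.90. Leaving out the control array of day 7 gave 1.27, and that of day 10 gave 0.40. In the same order of arrays left out, 4, 6, 1 and 0 members rose, the 1 being Mvk, while 197, 174, 17 and 13 of the 11993 genes rose, against 45 with all arrays. In such a fit the lone array of a group is assumed to vary like those of the other group.

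Probe sets other than the brightest were used as a check in the 16 genes that had several. Of 20 others above the filter, 17 had the sign of the brightest, and of 10 under it 8 did. For Hmgcs1 the 3 others above the filter gave log2 differences of 1.16, 0.79 and 1.40, against 1.27 for the brightest. For Hsd17b7 the others above the filter gave 0.93 and 1.38, against 1.12.

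Others disagreed in size. Those of Cyp51 gave 1.27 and 0.75, against 2.20, and neither passed. Those of Lss gave 1.76 and 0.25, against 1.02. A second probe set of Sc5d had signals of 1474.5 and 1214.9 in treated livers, against 4429.9 and 3399.3 in control livers. Its log2 difference was -1.54 ± 0.24 (SE; adjusted p = 0.0729 in a limma fit over probe sets), about 4 times that of the brightest, -0.38, and the remaining probe set gave -0.28. A second probe set of Srebf2 gave 0.96, against 0.60, and that of Idi1 gave 0.95, against 1.62.

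**Figure D4:**
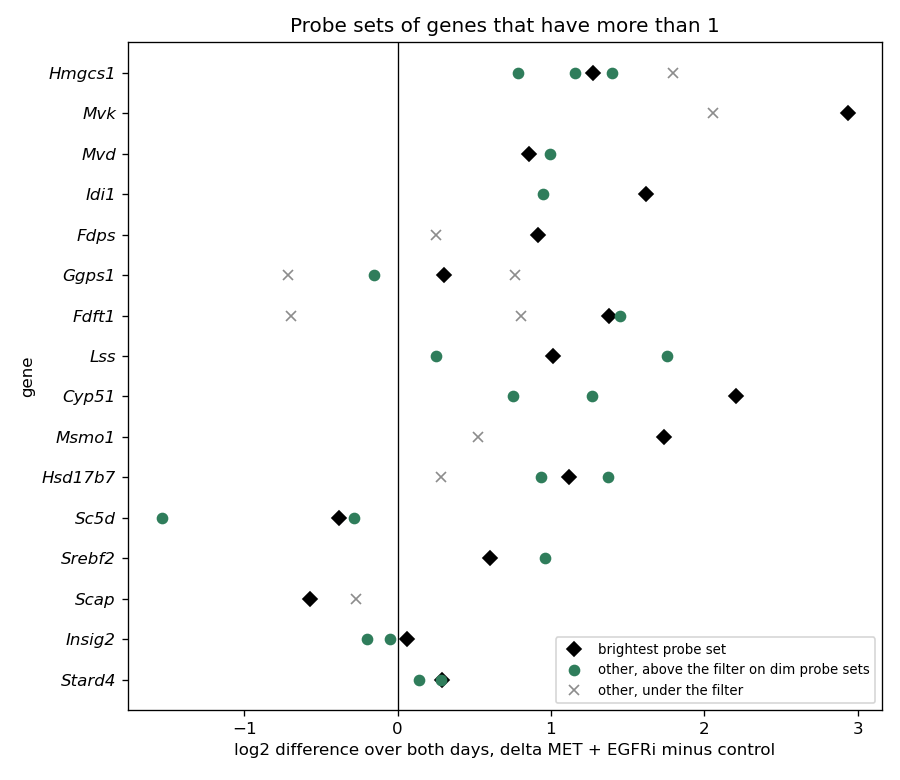
Rows are the 16 measured genes with more than 1 probe set, and the x axis is the log2 difference over both days (delta MET + EGFRi minus control) of the brightest probe set (diamond), of others above the filter on dim probe sets (circle) and of others under it (cross). Symbols fall on the same side of 0 in most genes, and Cyp51, Lss and Sc5d show the widest spread among probe sets above the filter.

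Neighbouring pathways were described by lists fixed with earlier results of these data known. Their counts at both days stand beside 26.7% of tested genes higher and 31.1% lower at both days. The fatty acid genes driven by the sister factor SREBP1 mostly had lower signals in treated livers. Of 14, 0 rose and 1 fell, and 13 were lower at both days. Their median stood at -1.13 (log2, day 7) and -0.54 (day 10), where the 17 cholesterol enzymes had 1.04 and 1.33. Scd1, the desaturase that makes oleate, was the 1 that fell, with 3760.6 and 6188.3 in treated livers against 62724 and 67630 in control livers (adjusted p = 0.00492).

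In the list for isoprenoid branches and electron donors 0 of 14 passed, and 3 were higher and 5 lower at both days. Cyb5r3, the reductase that feeds electrons to cytochrome b5 and so to Sc5d, had 8992.3 and 6829.3 in treated livers, against 14895 and 15744 in control livers. Aacs, which activates acetoacetate for lipid synthesis, differed by -1.22 ± 0.41 on the log2 scale (SE; adjusted p = 0.322), and the cytochrome Cyb5b by -0.74 ± 0.21 (adjusted p = 0.247). For Cyb5r3 the adjusted p was 0.174.

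Of 9 genes for SREBP processing and sterol-dependent degradation 0 passed, with 3 higher and 4 lower at both days and a median of 0.04. The site 2 protease gene Mbtps2, whose product frees SREBPs from the membrane, differed by 0.41 ± 0.25 (adjusted p = 0.569). Erlin1 and Erlin2, scaffold proteins of sterol-dependent degradation in the endoplasmic reticulum, differed by -0.61 ± 0.26 and -0.31 ± 0.20 (adjusted p = 0.426 and 0.597).

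Of 12 genes for lipoprotein uptake, lysosomal release and sterol transfer 0 passed, with 6 higher and 1 lower at both days and a median of 0.30. Lcat, which esterifies cholesterol in plasma lipoproteins, had 13712 and 14822 in treated livers, against 5672.8 and 7082.4 in control livers, with no overlap (1.17 ± 0.22, adjusted p = 0.101). Npc2, which carries cholesterol out of lysosomes, differed by 0.89 ± 0.24 (adjusted p = 0.224). Mylip, a ligase that marks lipoprotein receptors for destruction, differed by 0.56 ± 0.21 (adjusted p = 0.379).

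Bile acid synthesis, the main route by which the liver disposes of cholesterol, gave 0 passing of 9 genes, with 1 higher and 3 lower at both days. Its median changed side between the days, 0.50 at day 7 and -0.65 at day 10. Cyp8b1, which sets the share of cholic acid, had 3244.6 and 280.2 in treated livers, against 13336 and 8760 in control livers (adjusted p = 0.263). Hsd3b7 and Amacr, enzymes of the same route, differed by -0.55 ± 0.24 and -0.36 ± 0.21 (adjusted p = 0.425 and 0.546). Cyp7a1, the rate-limiting enzyme, named after its values were seen, had 7478.3 and 545.8 in treated livers, against 1587.2 and 3372.9 in control livers. Like Abcg5 and Abcg8 it was higher than control at day 7 and lower at day 10, without a test.

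**Figure D5:**
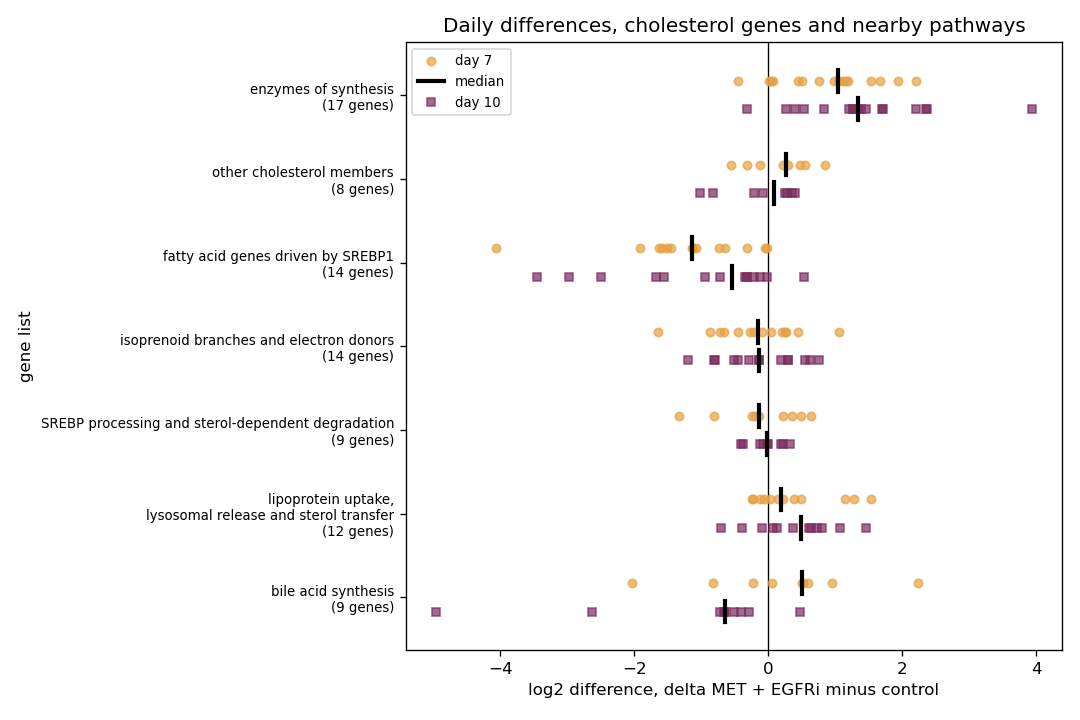
Each symbol is 1 gene of a list (rows), placed by its log2 difference (x axis, delta MET + EGFRi minus control) at day 7 (circle) or day 10 (square), with the list's median as a black bar. The cholesterol enzymes lie mostly right of 0 (medians 1.04 and 1.33), the SREBP1-driven fatty acid genes left of it (medians -1.13 and -0.54), and bile acid genes shift left at day 10.

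The median signal was 210.5 to 223.9 over the 4 arrays, whose number limits the precision of every value. Met had signals of 2432.5 and 2828.7 in treated livers, against 975.5 and 1270.8 in control livers. The place of its probes relative to exon 16 was not used here, so that this does not check the deletion.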

How the data were processed

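Liver RNA pooled by group and day was hybridised to 4 Affymetrix arrays. The deposited intensity values were made with MAS5, per the submitters' processing notes, with no version stated. Leaving out the top and bottom 2% of values, every array averaged 500 (500.002 to 500.003), so that the scaling equalises array levels and hides any global change. Pools carry no spread between animals, and p-values measure only the spread between these arrays, days included.

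Of 45101 probe sets, 64 array controls were left out and 34945 had a single gene symbol. Values under the 25th percentile (64.8) were set to it, log2 was taken, each gene was represented by its brightest probe set, and genes were kept where their average log2 value exceeded 7.67 (a signal of 204). The treated and control groups were tested in limma 3.58.1 (R 4.3.3, intensity trend, two-sided, 2 residual degrees of freedom per gene, Benjamini-Hochberg adjusted p under 0.05). Day pairs the arrays by label, and deviations of the same day correlated across genes with r = -0.07. The alternatives were other scalings, floors, filters and probe set rules, no trend, day as a block, other thresholds and leaving out each array. Promoter motifs were searched as letters on both strands. Figures were drawn with matplotlib 3.10.9 in Python 3.11.15.

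The members and all lists were chosen with earlier results of these data known. All members were named, and from each neighbouring list the genes that passed or else up to 3 with the largest smaller daily difference of equal sign.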

Additional observations from a re-analysis of the deposited data

Results flagged for a closer look

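In 3 members the treated minus control log2 difference had opposite signs at the 2 days. Of the 25 members, 19 were higher and 3 lower at both days, against 26.7% and 31.1% of tested genes. The remaining tested genes lacked a common sign, so that opposite signs were not particular to the members. With 1 pooled array per group and day, the difference between days was not tested. For Abcg5 it was 0.54 at day 7 and -1.02 at day 10. For its partner Abcg8 it was 0.48 at day 7 and -0.22 at day 10. For Insig2 it was -0.12 at day 7 and 0.24 at day 10.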

How the results depend on the processing

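Over 9 alternatives that kept all 4 arrays, 220 of 225 values of single members kept their direction and their side of the threshold. This count says little about stability. A lower floor, other filters, no trend and day as a block leave the members' log2 differences unchanged, so that direction was fixed there. Since only Cyp51 passed in the test described above, the other members could change side only by passing. With day as a block (replicate block, the pairing the labels give) the calls of members did not change, and Cyp51 passed with an adjusted p of 0.0486, with 24 genes rising over the whole array in place of 45. The number of members that rose, 1, was 2 with arrays scaled to equal medians, 0 without a filter on dim genes (where 0 of 18193 genes passed and 1918 had an unadjusted p under 0.05), 0 with the mean of probe sets, 3 at an adjusted p under 0.1 and 13 at an unadjusted p under 0.05. Leaving out 1 array gave 0 to 6 members that rose and a median log2 difference of 0.40 to 1.27. At day 7, 3 members were 3-fold higher, and quantile normalization left 5 at 2-fold. At day 10, 6 were 3-fold higher, 2 were 1.5-fold lower, 0 were 3-fold lower, and 0 were 2-fold lower after quantile normalization. At an unadjusted p under 0.05 (limma), 5.93% of tested genes were higher. The shares of tested genes at an adjusted p under 0.1, at 3-fold, at 1.5-fold and at 2-fold after quantile normalization are not given here. The counts of members at those rules are therefore not set against all genes. Insig2 changed sign with quantile normalization (-0.027), with the mean of probe sets (-0.062) and in its other probe sets (-0.20 and -0.048), as did other probe sets of Ggps1 (-0.16 and -0.71) and 1 of Fdft1 (-0.69). Over the arrays left out, the log2 difference ran between -0.023 and 1.86 for Fdps, -0.055 and 0.53 for Dhcr7, -0.081 and 0.20 for Insig2, -0.011 and 0.59 for Stard4, -0.78 and 0.30 for Abcg5, and -0.045 and 0.30 for Abcg8. The cause of these changes was not tested. Under the filter level probe sets are near background, and 1 pooled array per group and day sets the precision.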
